A study of Mus musculus with 6 samples.

Results

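The core circadian clock feedback loop was examined in hind limb skeletal muscle through 10 genes, chosen by name from the 20632 genes in the table of estimated read counts. They are the activators *Arntl* (which encodes BMAL1), *Clock* and *Npas2* and the repressors *Per1*, *Per2*, *Per3*, *Cry1*, *Cry2*, *Nr1d1* and *Nr1d2*. All 10 were present, and all 10 passed the filter on low counts. The mice were male, on a C57BL/6 background (C57BL/6J in the study's methods), aged 3 months and unexercised. The control mice (Baf155 WT, n = 3) carried floxed *Baf155* alleles without Cre. The mutant mice (Baf155 ΔMF, n = 3, genotype Baf155 -/- in the labels) carried the same floxed alleles with the *MCK*-Cre transgene. This transgene is active in skeletal and cardiac muscle fibres, so the other cells of a muscle keep the gene. The TA, EDL, GA, SOL and Q muscles of a mouse went into 1 library of total RNA, and no hour of dissection is given in the sources used here. Sample titles begin with MS13 (Baf155 WT mouse MS13-3 and Baf155 ΔMF mice MS13-1 and MS13-2), MS14 (Baf155 ΔMF mouse MS14-2) or MS15 (Baf155 WT mice MS15-2 and MS15-3), and the labels do not say what the prefixes mean. Both genotypes occur only in MS13. Elsewhere genotype and prefix cannot be told apart.

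The clock of mammalian cells is a loop of transcription factors. BMAL1 pairs with CLOCK or with its relative NPAS2 and activates genes that carry E-boxes, among them the *Per*, *Cry* and *Nr1d* genes. PER and CRY proteins then block the activators, and the nuclear receptors REV-ERBα (*Nr1d1*) and REV-ERBβ (*Nr1d2*) repress *Arntl* and *Npas2* through RORE sites. In tissues of mice kept in a light-dark cycle, *Arntl* and *Npas2* transcripts are highest around the end of the dark phase, *Nr1d1* in the middle of the light phase and the *Per* genes towards dusk. *Cry1* follows late in the dark phase and *Clock* varies little. The loop runs within muscle fibres themselves and there times genes of fuel use.

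The loop genes differed mainly by title prefix, and none of them passed the test between the genotypes. Of the 10 genes, 8 differed between MS15 and MS13 with an adjusted p under 0.05 in edgeR's quasi-likelihood test with genotype and prefix in the fit, against 7.24% of all 12116 genes tested. *Arntl* and *Npas2* were higher in MS15 (3.57% of all genes were called higher). *Per1*, *Per2*, *Per3*, *Cry2*, *Nr1d1* and *Nr1d2* were lower (3.67% of all genes were called lower). At an unadjusted p under 0.05 it was 9 of the 10 genes, against 22.2% of all genes. In the genotype comparison without the prefix, 0 of the 10 genes had an adjusted p under 0.05, against 0.0248% of all genes, and 4 had an unadjusted p under 0.05, against 7.95%. DESeq2 and limma voom also called 0 of the 10 between genotypes at an adjusted p under 0.05, with 23 and 5 of all genes called. Without adjustment 0 and 3 of the 10 had p under 0.05, against 605 of 12115 and 940 of 12116 genes. The MS15 term compares 2 Baf155 WT mice with 1, mouse MS13-3, so the prefix cannot be told apart from that mouse. The fit has 2 residual degrees of freedom and a spread that edgeR shares across genes. This comparison was chosen after the values were seen. DESeq2 gave an adjusted p for 7 of the 10 genes in this comparison and called 3 of them (*Arntl*, *Per3* and *Nr1d2*), against 5.11% of the 5539 genes with an adjusted p. It gave none for *Npas2*, *Per2* and *Cry1*, and 8 of the 10 genes had an unadjusted p under 0.05, with the share of all genes not counted. In a robust edgeR fit *Per1* (adjusted p = 0.32) and *Nr1d1* (adjusted p = 0.324) were not called.

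**Figure D1:**
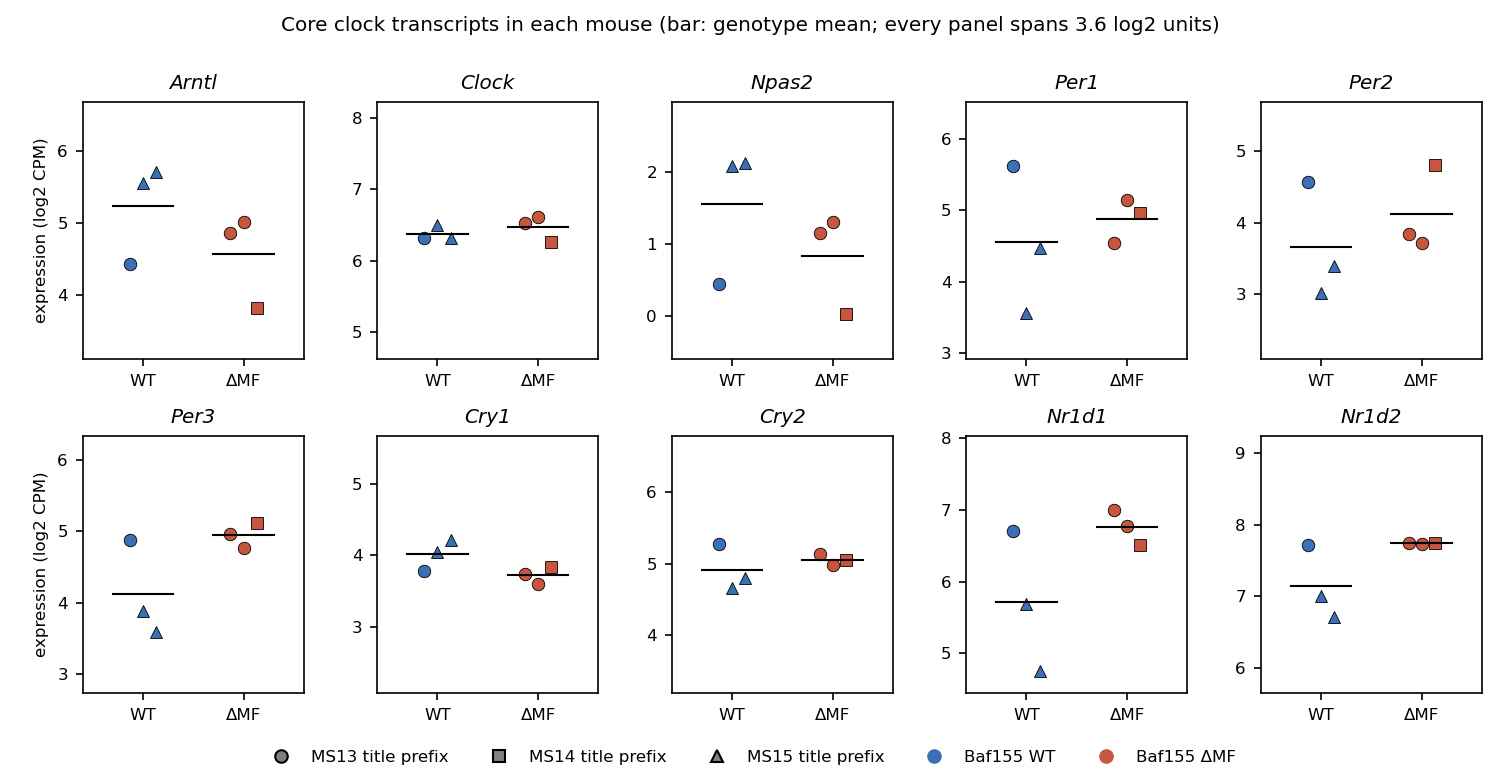
Expression of the 10 core loop genes in each of the 6 mice (vertical axes, log2 CPM; blue, Baf155 WT; red, Baf155 ΔMF; circle, square and triangle, title prefix MS13, MS14 and MS15; bar, genotype mean). The MS15 triangles lie above the MS13 Baf155 WT circle for *Arntl*, *Npas2* and *Cry1* and below it for the *Per* genes, *Cry2* and the *Nr1d* genes.

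The libraries held between 8426022 and 12469335 counts. Levels are given as CPM, read counts scaled by library size and TMM factors. A floor of 3 counts came to 0.23 to 0.351 CPM in these libraries, for counting error only. *Smarcc1*, which encodes Baf155, had 23.4, 19.5 and 17.0 CPM in mice MS13-3, MS15-2 and MS15-3 and 7.05, 6.54 and 7.72 CPM in mice MS13-1, MS13-2 and MS14-2. Its log2 fold change was -1.49 (SE 0.15, adjusted p = 0.00907 from edgeR), and the genotypes did not overlap. Without mouse MS15-2, MS13-1 or MS13-2 its adjusted p was 0.0616, 0.0533 or 0.0678. All 12 fibre markers were detected, with *Myh4* as the most abundant, and summed to 176163 to 179466 CPM in the MS15 mice and 162332 to 168879 CPM in the other 4 mice. Summed leukocyte markers were 214 to 276 CPM in the MS15 mice and 94.2 to 138 CPM in the other 4 mice. Summed adipocyte markers were 70.9 to 82.9 CPM against 34.3 to 49.8 CPM, summed endothelial markers 246 to 254 CPM against 302 to 341 CPM, and summed smooth muscle and pericyte markers 635 to 674 CPM against 770 to 903 CPM. Of these lists 6 of 10, 6 of 6, 7 of 7 and 6 of 6 genes passed the filter, and no marker was at 0 in all mice. The other sums overlapped between the MS15 mice and the other 4 mice. They were 2248 to 2263 against 1685 to 2635 CPM for fibroblasts and 64.8 to 77.2 against 64.7 to 78.3 CPM for Schwann cells and nerve. Red blood cell markers summed to 623 to 1229 against 371 to 806 CPM, and satellite cell markers to 4.13 to 5.09 against 3.98 to 5.30 CPM. The MS15 libraries also stood apart over all genes. On the first principal component (43.3% of the variance) they lay at 25.0 and 22.5 and the other 4 between -17.1 and -1.56, and the 10 most abundant genes took 28.1% to 29.1% of their counts, against 30.8% to 33.7%. Apart from the sums that overlapped, these measures move with the same prefix as the clock genes, and their part in the clock values was not tested. In whole muscle, fewer cells of a type and less RNA per cell cannot be told apart.

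Among the activators, *Arntl* (chromosome 7 of GRCm38, 113207465 to 113314126) encodes the obligate partner of both CLOCK and NPAS2. Its start region holds a RORE, the site through which REV-ERB and ROR proteins act, in a RefSeq promoter window, which runs from 250 bases before to 50 bases after a start site. The 30 bases around the site (chr7:113207528-113207557, plus strand) are shown because they tie *Arntl* to the *Nr1d* genes below, and the capitals mark the RORE, which 0.384% of all 32851 RefSeq windows contain.
Arntl: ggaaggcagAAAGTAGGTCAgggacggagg
*Arntl* had 21.3, 46.9 and 52.3 CPM in mice MS13-3, MS15-2 and MS15-3 and 28.9, 32.2 and 13.8 CPM in mice MS13-1, MS13-2 and MS14-2. The MS15 mice were the highest and mouse MS14-2 the lowest, and the genotypes overlapped. *Arntl* was 1.22 higher on the log2 scale in MS15 than in MS13 (SE 0.14, adjusted p = 0.000504 from edgeR). The log2 fold change between genotypes was -0.68 (SE 0.33, adjusted p = 0.622). With the prefix in the fit the genotype value turned to 0.52 (SE 0.14, adjusted p = 0.413).

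*Npas2* (chromosome 1, 39193731 to 39363236), which can stand in for CLOCK, followed the same order of mice at a much lower level. It had 1.17, 4.06 and 4.19 CPM in the Baf155 WT mice (12, 53 and 47 counts) and 2.03, 2.28 and 0.819 CPM in the Baf155 ΔMF mice (19, 22 and 7 counts). Mice are given in the order MS13-3, MS15-2, MS15-3 and then MS13-1, MS13-2, MS14-2 here and in what follows. *Npas2* was 1.81 higher in MS15 than in MS13 (log2, SE 0.38, adjusted p = 0.0116 from edgeR), and between genotypes its log2 fold change was -0.88 (SE 0.46, adjusted p = 0.627). *Clock* (chromosome 5, 76209868 to 76304792), the constitutive partner, had 79.8, 90.5 and 79.4 CPM in the Baf155 WT mice and 92.0, 98.1 and 76.9 CPM in the Baf155 ΔMF mice. Its levels lay close together in all 6 mice. The log2 difference was 0.09 between MS15 and MS13 (SE 0.11, adjusted p = 0.684) and 0.10 between genotypes (SE 0.11, adjusted p = 0.799).

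The REV-ERB genes were lowest in the MS15 mice, where *Arntl* was highest. *Nr1d1* (chromosome 11, 98767932 to 98775333, minus strand) had 104, 51.4 and 26.7 CPM in the Baf155 WT mice and 127, 110 and 90.7 CPM in the Baf155 ΔMF mice. Mouse MS13-3 lay among the Baf155 ΔMF mice, and mouse MS14-2, the lowest in *Arntl*, was below the 3 MS13 mice in *Nr1d1* too. The log2 difference of *Nr1d1* between MS15 and MS13 was -1.41 (SE 0.23, adjusted p = 0.00378 from edgeR). Between genotypes its log2 fold change was 0.85 (SE 0.35, adjusted p = 0.602), and with the prefix in the fit it was 0.18 (SE 0.23, adjusted p = 0.993). The exons of *Nr1d1* share 263 bases (8.55% of their merged length) with *Thra* on the other strand, and in 6 of 6 mice the estimate for *Nr1d1* was not a whole number. *Thra*, which encodes the thyroid hormone receptor α, had 65.1 CPM as the mean of each genotype and a log2 difference of 0.02 between MS15 and MS13 (SE 0.11, adjusted p = 0.924). The strand setting behind the counts is not given in the sources used here.

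*Nr1d2* (chromosome 14, 18204054 to 18239127) had 210, 128 and 105 CPM in the Baf155 WT mice and 215, 213 and 214 CPM in the Baf155 ΔMF mice. It was the only one of the 10 loop genes whose genotypes did not overlap, against 10.8% of all genes (5.2% with the mutants above), and mouse MS13-3 lay just under the mutants. By the exact permutation test (two-sided) this separation has p = 0.1, the smallest that 3 mice against 3 allow. The log2 fold change between genotypes was 0.54 (SE 0.20, adjusted p = 0.601 from edgeR) and was 0.03 (SE 0.12, adjusted p = 0.996) with the prefix in the fit. The difference between MS15 and MS13 was -0.85 (SE 0.12, adjusted p = 0.00144). On the log2 CPM scale the SD of *Nr1d2* was 0.0093 over the 3 Baf155 ΔMF mice and 0.52 over the 3 Baf155 WT mice.

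The *Per* genes encode the proteins that carry the repressor complex into the nucleus. Stretches before their start sites, and before those of *Cry1*, *Cry2*, *Nr1d1* and the E-box gene *Ciart*, are shown for the sites through which the loop acts. They come from the RefSeq table for GRCm38.p6 and run from 5′ to 3′. They cover chr11:69098753-69098818 for *Per1* (plus strand, inside the GENCODE M21 gene and before an inner start site), chr4:151044786-151044900 for *Per3*, chr10:85185079-85185163 for *Cry1*, chr2:92434200-92434265 for *Cry2*, chr11:98775378-98775435 for *Nr1d1* and chr3:95882252-95882374 for *Ciart* (all minus strand). Capitals mark the E-box CACGTG, the E′-box CACGTT (read here on the other strand as AACGTG) and, in *Per3*, the D-box TTATGTAA, where PAR-bZIP factors such as DBP bind.
Per1: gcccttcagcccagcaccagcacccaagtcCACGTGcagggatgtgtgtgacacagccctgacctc
Per3: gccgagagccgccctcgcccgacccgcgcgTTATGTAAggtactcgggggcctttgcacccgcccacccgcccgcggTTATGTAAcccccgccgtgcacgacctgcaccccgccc
Cry1: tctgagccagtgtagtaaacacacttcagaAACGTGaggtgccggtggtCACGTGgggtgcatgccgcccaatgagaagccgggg
Cry2: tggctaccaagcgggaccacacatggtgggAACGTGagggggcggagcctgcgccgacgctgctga
Nr1d1: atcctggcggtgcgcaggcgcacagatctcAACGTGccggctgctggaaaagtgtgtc
Ciart: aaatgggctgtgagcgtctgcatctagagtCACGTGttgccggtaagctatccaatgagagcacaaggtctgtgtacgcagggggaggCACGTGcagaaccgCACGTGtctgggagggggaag
Of the 10 loop genes, 9 had a window in the table (13 windows in all, both strands searched), and *Per2* was the gene without one. The E-box was in windows of 2 of the 9 genes (7.15% of all windows), the E′-box in 3 (4.68%) and a D-box, TTATGTAA or TTACGTAA, in 1 (1.06%). A gene was counted if any of its windows held the site, while the shares are of single windows, so the units differ. *Ciart* held 3 E-boxes. A STAT site, TTCNNNGAA, was in 1 of the 9 genes, *Per1*, against 8.3% of all windows. The cAMP response element TGACGTCA was in 0 of the 9 (1.79%), and so was the glucocorticoid response element (0.00913%). These are matches of letters within 300 bases and say nothing of binding.

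*Per1* (chromosome 11, 69095217 to 69109960) had 49.0, 11.6 and 22.04 CPM in the Baf155 WT mice and 23.2, 35.1 and 31.1 CPM in the Baf155 ΔMF mice. The highest and the lowest values were both in Baf155 WT mice. The MS15 to MS13 difference was -1.56 (log2, SE 0.26, adjusted p = 0.00444 from edgeR), while the genotype difference was 0.13 (SE 0.39, adjusted p = 0.931). *Per2* (chromosome 1, 91415982 to 91459324) had 23.5, 7.88 and 10.4 CPM in the Baf155 WT mice and 14.2, 12.98 and 27.8 CPM in the Baf155 ΔMF mice, so the highest value was in mouse MS14-2, which had the lowest *Arntl*. Its MS15 to MS13 difference was -1.38 (SE 0.17, adjusted p = 0.000712), and its genotype difference was 0.41 (SE 0.38, adjusted p = 0.755). *Per3* (chromosome 4, 151003652 to 151044665) had 29.1, 14.6 and 11.9 CPM against 30.9, 27.0 and 34.6 CPM. Apart from mouse MS13-3, which lay within the range of the Baf155 ΔMF mice, its genotypes were apart. The MS15 to MS13 difference of *Per3* was -1.13 (SE 0.16, adjusted p = 0.00144) and the genotype difference 0.74 (SE 0.26, adjusted p = 0.601).

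The cryptochromes, which hold the activators in check, differed less between the prefixes than the *Per* genes, and their values had opposite signs. *Cry1* (chromosome 10, 85131700 to 85185064) had 13.6, 16.3 and 18.3 CPM in the Baf155 WT mice and 13.1, 11.9 and 14.1 CPM in the Baf155 ΔMF mice. It was highest in the MS15 mice, with a log2 difference to MS13 of 0.34 (SE 0.16, adjusted p = 0.225 from edgeR), which did not pass the threshold. Its genotype difference was -0.30 (SE 0.14, adjusted p = 0.622). *Cry2* (chromosome 2, 92403646 to 92434043) had 38.6, 25.2 and 27.8 CPM against 35.0, 31.4 and 32.9 CPM, with the MS15 mice lowest. Its difference between MS15 and MS13 was -0.55 (SE 0.13, adjusted p = 0.0231), and its genotype difference was 0.12 (SE 0.15, adjusted p = 0.822). The log2 ratio of *Cry1* to *Cry2* was 0.88 higher in the MS15 mice than in mouse MS13-3.

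**Figure D2:**
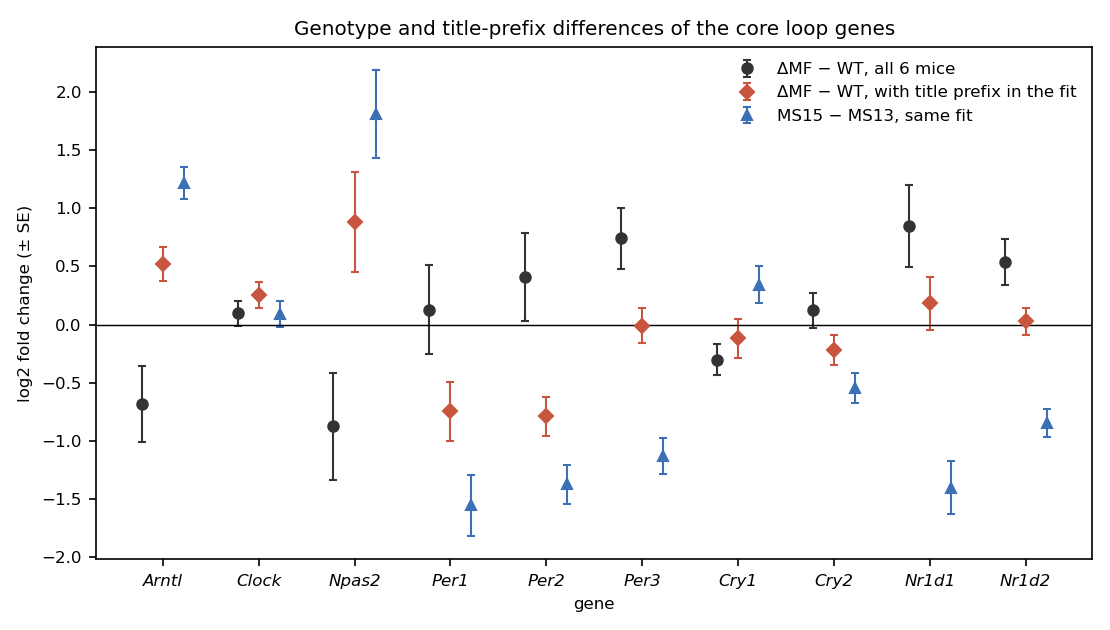
Log2 fold changes of the 10 loop genes (vertical axis, ± SE from edgeR) between genotypes over all 6 mice (black circles), between genotypes with the title prefix in the fit (red diamonds) and between MS15 and MS13 in that same fit (blue triangles). The blue triangles run from -1.56 for *Per1* to 1.81 for *Npas2*. For *Arntl*, *Npas2*, *Per1*, *Per2*, *Cry2* and, barely (-0.012), *Per3* the red diamond lies on the other side of 0 from the black circle.

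Within MS13 the genotype can be compared between 1 Baf155 WT and 2 Baf155 ΔMF mice, and the fit with the prefix rests on this contrast. In that fit 0 of the 10 genes had an adjusted p under 0.05 for genotype (0.132% of all genes did), and 4 had an unadjusted p under 0.05, against 5.08% of all genes. The same fit by DESeq2 and limma voom also called 0 of the 10, against 0.119% and 0.099% of the genes with an adjusted p. Without adjustment 2 and 4 of the 10 had p under 0.05, with the share of all genes not counted. The 4 genes in edgeR were *Arntl* (0.52), *Clock* (0.25, SE 0.11, adjusted p = 0.942), *Per1* (-0.75, SE 0.26, adjusted p = 0.73) and *Per2* (-0.79, SE 0.17, adjusted p = 0.125). *Per2* had an adjusted p under 0.05 in this comparison without the filter on low counts (0.234% of all genes did) and in a robust fit (0.19%). *Per1* and *Per2* did without mouse MS15-2 (0.884%) or MS15-3 (0.827%), and *Arntl* without mouse MS15-2. Leaving out an MS15 mouse leaves fewer residual degrees of freedom than the full fit. Without mouse MS13-1 or MS13-2 the contrast is 1 mouse against 1, so no call is given for those fits. The values of *Per3* (-0.01), *Nr1d1* (0.18) and *Nr1d2* (0.03) were close to 0. The MS13 Baf155 WT mouse was also the library on which the genotype comparison turned. Without mouse MS13-3, 7 of the 10 genes had an adjusted p under 0.05 between genotypes, against 7.77% of all genes, and what is then compared is the MS15 mice with MS13 and MS14 mice. In that comparison the log2 fold change was 1.21 for *Per3* (adjusted p = 0.000283 from edgeR) and -0.98 for *Arntl* (adjusted p = 0.0132).

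The balance of the loop was summarized for each mouse as the mean log2 CPM of the 3 activators minus that of the 7 repressors. Only differences between mice can be read from it, since genes of different length are averaged. The balance was 0.163 and 0.158 in the MS15 mice, -0.93 and -1.10 in the Baf155 ΔMF mice of MS13, -1.78 in mouse MS13-3 and -2.07 in mouse MS14-2. The MS15 mice therefore had the highest balance, and the other Baf155 WT mouse lay between the Baf155 ΔMF mice. By genotype the balance was -0.49 ± 1.12 in Baf155 WT and -1.37 ± 0.61 in Baf155 ΔMF mice (SD, n = 3 each), a difference of -0.88 that is smaller than the SD of the Baf155 WT mice. It was -1.53 without mouse MS13-3, -0.56 without mouse MS15-2 or MS15-3 and -0.53 without mouse MS14-2. Within MS13 the difference had the opposite sign, 0.76. From mouse MS13-3 to the MS15 mice, the mean log2 CPM differed by 0.99 for the activators and by -0.95 for the repressors. The log2 ratio of *Arntl* to *Nr1d1* was 2.70 higher in the MS15 mice than in mouse MS13-3 and 0.34 higher in the MS13 Baf155 ΔMF mice than in mouse MS13-3. Set against the usual order of peaks given above, the MS15 mice had high levels of the transcripts that peak around the end of the dark phase and low levels of those that peak in the light phase and towards dusk. Mice MS13-3 and MS14-2 had low *Arntl* and *Npas2* and high *Per2*, and in mice MS13-1 and MS13-2 these 3 transcripts lay near the mean of the 6 mice. No phase was assigned, because the hour of dissection is not given and cannot be told apart from the prefix here.

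**Figure D3:**
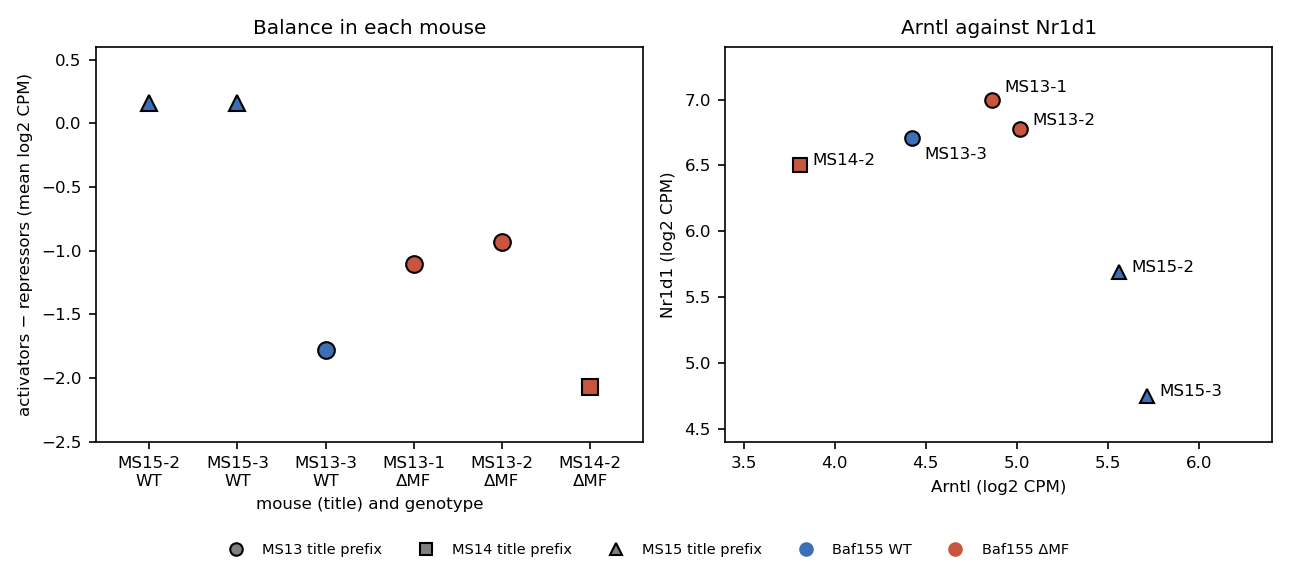
Left, activator minus repressor balance of each mouse (vertical axis, difference of mean log2 CPM). Right, *Nr1d1* (vertical axis) against *Arntl* (horizontal axis), both in log2 CPM, with 1 point per mouse. The MS15 mice stand at 0.163 and 0.158 in the left panel and at the lower right of the right panel, and mouse MS13-3 lies with the Baf155 ΔMF mice in both.

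The spread within a genotype is given for scale. The Baf155 WT mice are mouse MS13-3 and both MS15 mice, so their spread holds the same prefix difference and is no separate result. Over the 3 Baf155 WT mice the median SD of log2 CPM was 0.69 for the 10 genes, against 0.16 for all genes tested and 0.39 at the lower bound of the most variable 10% of them. *Per1* had the largest SD of the 10 genes (1.03) and *Clock* the smallest (0.11). Over the 3 Baf155 ΔMF mice the median was 0.21 against 0.14 for all genes and 0.35 at the lower bound of the most variable 10%, and there *Npas2* (0.70), *Arntl* (0.66) and *Per2* (0.60) varied most. Mouse MS14-2 was the lowest mutant in *Arntl* and *Npas2* and the highest in *Per2*. The median of edgeR's gene-wise coefficient of biological variation was 0.251 for the 10 genes and 0.103 for all genes. In 9 of the 10 genes both MS15 mice lay beyond the other 4 mice, above them in 3 (17.5% of all genes) and below them in 6 (17.1%), and 34.6% of all genes did so in either direction. *Clock* was the exception.

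To compare levels between genes, CPM was divided by the length of the merged GENCODE M21 exons in kilobases (kb), since the annotation behind the counts is not given. *Nr1d2* (33.4 CPM per kb as the mean of the 6 mice) and *Nr1d1* (27.6 CPM per kb) were the most abundant loop transcripts, and they took the top places in 6 of 6 mice. Their ranges overlapped. *Clock* followed with 6.27 CPM per kb, then *Per1* (5.09), *Cry2* (5.03), *Cry1* (4.36) and *Arntl* (4.33 CPM per kb), whose ranges over the mice overlapped from neighbour to neighbour. *Per2* and *Per3* had 2.75 and 2.57 CPM per kb. *Npas2* had 0.506 CPM per kb and was the least abundant in 6 of 6 mice, and its highest value (0.875) lay below the lowest value of *Per3* (1.24 CPM per kb).

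**Figure D4:**
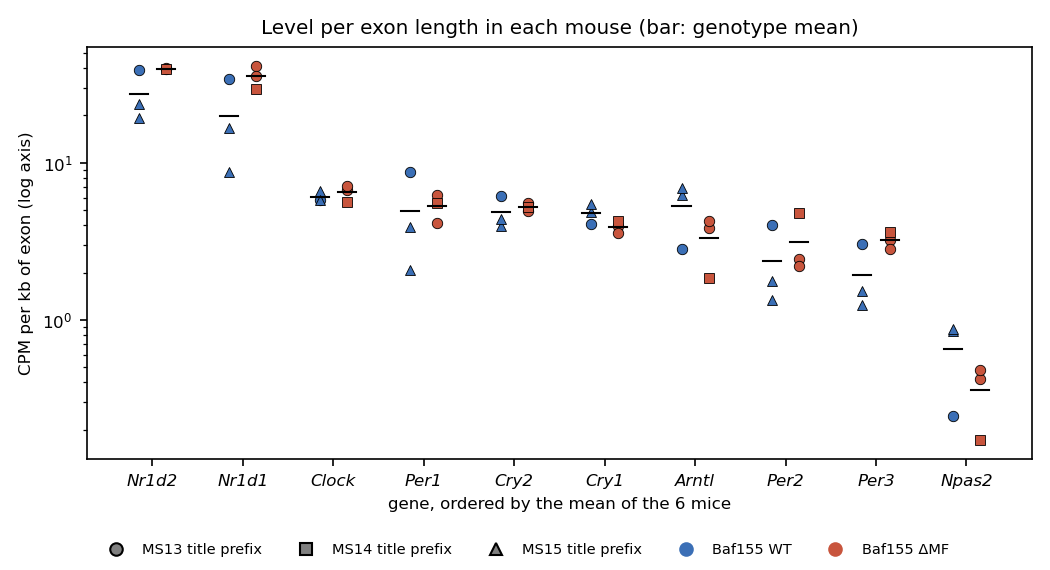
Level of each loop gene in each mouse as CPM per kb of merged exon (vertical log axis), with genes ordered by the mean of the 6 mice, colours and symbols by genotype and title prefix, and bars for genotype means. The *Nr1d* genes stand above the other genes and *Npas2* below them in 6 of 6 mice.

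Other genes of the clock were measured beside the loop. Among the 7 ROR and other loop factors, 0 passed the test between genotypes, also without adjustment (p under 0.05, against 7.95% of all genes). In the prefix comparison 2 were lower in MS15 than in MS13 (3.67% of all genes). *Ciart*, which encodes the BMAL1 repressor CHRONO, had 7.58, 0.459 and 0.892 CPM in the Baf155 WT mice (78, 6 and 10 counts) and 7.47, 6.54 and 8.07 CPM in the Baf155 ΔMF mice. Its difference between MS15 and MS13 was -3.50 on the log2 scale (SE 0.34, adjusted p = 0.000155 from edgeR), and between genotypes it was 1.38 (SE 0.64, adjusted p = 0.622). *Rora*, whose product activates *Arntl* at the RORE, was the other with a difference of -0.53 (adjusted p = 0.0323). *Rorb* (-0.96, adjusted p = 0.278), *Arntl2*, *Timeless* and *Tipin* did not pass.

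Of the 6 clock output factors, which pass the rhythm on to other genes, 0 passed the adjusted test between genotypes. Without adjustment 3 were higher and 1 was lower with p under 0.05, against 3.35% and 4.6% of all genes. In the prefix comparison 3 were lower and 1 higher in MS15, against 3.67% and 3.57%. *Dbp*, an E-box target that acts on D-boxes, had 61.8, 15.5 and 12.1 CPM in the Baf155 WT mice and 69.2, 68.0 and 84.7 CPM in the Baf155 ΔMF mice. Its difference between MS15 and MS13 was -2.15 (log2, SE 0.13, adjusted p = 3.1e-06 from edgeR), which ranked 1 of all genes tested by p-value. The genotypes did not overlap, as in 10.8% of all genes. Its genotype difference was 1.33 (SE 0.45, adjusted p = 0.601) and shrank to 0.15 between the MS13 mice. The exons of *Dbp* share 539 bases (18.0% of their merged length) with *Sphk2* on the other strand, and its estimates were not whole numbers. *Sphk2* had a log2 difference of -0.17 between MS15 and MS13 (SE 0.14, adjusted p = 0.525). *Hlf* (-0.93, adjusted p = 0.00717) and *Bhlhe40* (-0.58, adjusted p = 0.00446) were lower in MS15 too. *Nfil3*, which opposes DBP at D-boxes and is itself repressed by REV-ERB, was higher in MS15 (1.07, adjusted p = 0.0357). It had 22.4, 32.1 and 62.5 CPM in the Baf155 WT mice and 13.3, 13.6 and 15.3 CPM in the Baf155 ΔMF mice, again without overlap (10.8% of all genes). Its genotype difference was -1.47 (SE 0.30, adjusted p = 0.367). Between the MS13 mice it was -0.73. *Bhlhe41*, a repressor that competes for E-boxes, had 54.2, 53.7 and 51.3 CPM against 72.1, 64.9 and 83.4 CPM, also without overlap. Its genotype difference was 0.47 (SE 0.10, adjusted p = 0.404) and it differed little between MS15 and MS13 (-0.05, adjusted p = 0.862).

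**Figure D5:**
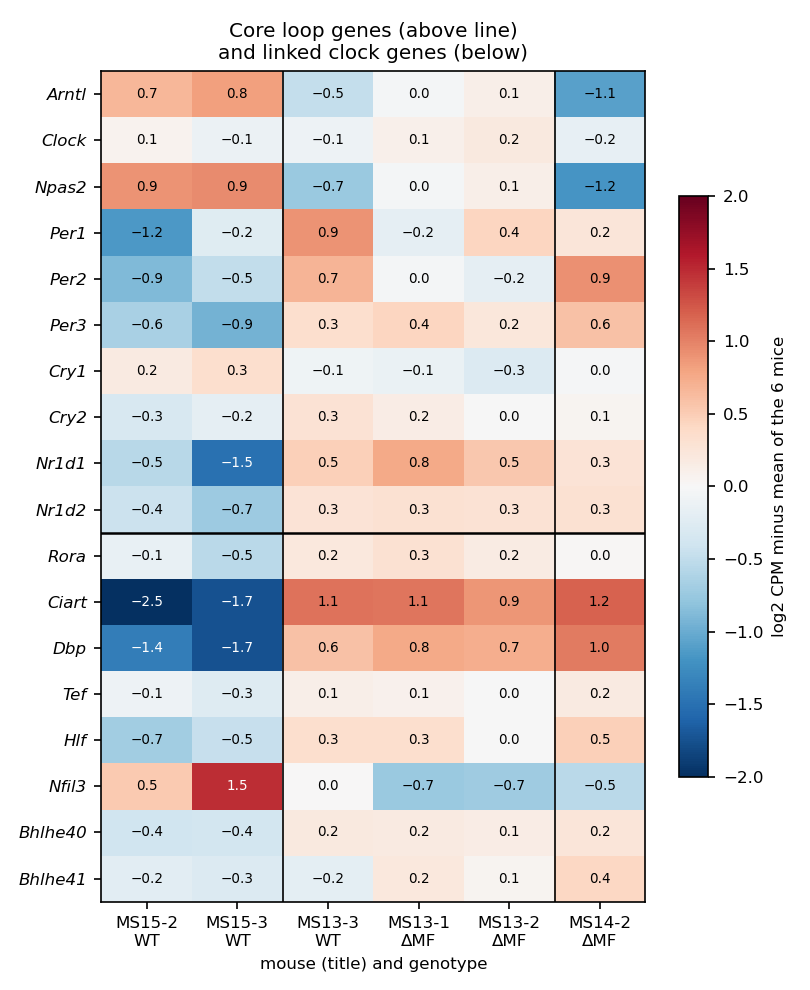
Log2 CPM minus the mean of the 6 mice for the 10 loop genes (above the horizontal line) and 8 linked clock genes (below it), with mice in columns ordered by title prefix and red for high and blue for low. The MS15 columns are red for *Arntl*, *Npas2* and *Nfil3* and blue for *Per*, *Nr1d*, *Ciart* and *Dbp* rows, and MS14-2 is the bluest column for *Arntl* and *Npas2*.

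Of the kinases, ubiquitin ligases and phosphatases of PER and CRY, 13 of 14 could be tested. Between genotypes 0 had an adjusted p under 0.05 (0.0248% of all genes) and 0 an unadjusted p under 0.05 (7.95%). In the prefix comparison 2 were lower in MS15 (3.67% of all genes). *Usp2*, a deubiquitinase that is itself a clock target, and *Gsk3b* were lower in MS15 (-0.67, adjusted p = 0.00517, and -0.57, adjusted p = 0.00702, from edgeR). *Csnk1d* and *Csnk1e*, the casein kinases that mark PER for decay, had MS15 differences of -0.10 and 0.05 (adjusted p = 0.67 and 0.877). Of 19 cofactors of the loop, 0 passed the adjusted test between genotypes, and 3 were lower in MS15 (3.67% of all genes). At an unadjusted p under 0.05, 1 was higher between genotypes (3.35% of all genes), *Ncor1*, a corepressor of REV-ERB (0.22, adjusted p = 0.601). *Nrip1*, named after its value was seen, had the largest of the 3 MS15 differences (-0.82, adjusted p = 0.0021 from edgeR).

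Among 12 genes known to follow the clock in muscle, 0 passed an adjusted p of 0.05 between genotypes, with 2 higher and 2 lower at an unadjusted p under 0.05 (3.35% and 4.6% of all genes). By prefix 5 differed (7.24% of all genes), with 2 higher and 3 lower in MS15. *Myod1*, the myogenic factor and an E-box target, was higher in MS15 (0.92, adjusted p = 0.0045 from edgeR), as was *Lonrf3* (0.96, adjusted p = 0.00935). *Tead1* (-0.82, adjusted p = 0.00359), *Hk2*, the hexokinase of muscle (-0.69, adjusted p = 0.00499), and *Coq10b* (-1.22, adjusted p = 0.00051) were lower. *Hk2*, *Coq10b*, *Tcap*, *Pdk4* and *Csnk1e* were named after their values were seen. *Tcap*, a titin-binding sarcomere protein, and *Pdk4*, a brake on glucose oxidation, had values of -0.08 and -0.19 with adjusted p = 0.738 and 0.598.

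The genes whose pattern over the 6 mice lay nearest to the loop were found by the root mean square (RMS) difference of log2 CPM, each gene centred on its own mean. Nearest to *Arntl*, whose own RMS deviation was 0.65, was *Npas2* at 0.16, followed by *Ifit3b* (0.21), *H2-T24* (0.21), *Pim1* (0.22) and *Mmp28* (0.22). Nearest to *Nr1d1*, with an own RMS deviation of 0.78, were *Slc4a8* (0.17), *Cecr2* (0.27), *Dynlt1b* (0.28), *Mylk4* (0.32) and the loop gene *Per3* (0.33). Each of these lists is the 5 nearest of all genes tested and is a description of these 6 mice.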

How the data were processed

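Total RNA libraries (stranded kit) were made and sequenced by the authors from 6 mice. The authors deposited expected counts, estimated reads per gene symbol without normalization, in a single table. The submitters' processing notes name CASAVA 1.8.2, cutadapt 1.10, Bowtie2 2.2.7, TopHat2 2.1.1, RSEM 1.2.30 and limma with builds mm10 and GRCm38, without their roles. The annotation and strand setting are not given in the sources used here.

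Counts were rounded and fitted with edgeR 4.0.16 in R 4.3.3 (filterByExpr with a minimum count of 10 and total of 15, TMM scaling, quasi-likelihood F test, Benjamini-Hochberg adjustment over 12116 genes). Log2 CPM used a prior count of 2. SE is the log2 fold change divided by the square root of F. A fit with the title prefix as a term gave the MS15 to MS13 difference. Genotypes came from the labels, and replicates are separate mice. The prefix comparison between MS15 and MS13 was added after the data were seen. The loop genes and the gene lists were chosen with earlier results of these data known. All loop genes were named, all ROR and output factors could be, and in other lists those with the smallest p (up to 4), unless said otherwise. Coordinates and exon lengths are from GENCODE M21 and promoter sequences from RefSeq (GRCm38.p6). The alternatives tried were limma voom (limma 3.58.1), DESeq2 1.42.0, other scalings and filters, a robust fit, unrounded counts and leaving out each mouse. The genotype comparison without the prefix was tried on simulated data, and the fit with the prefix was not. Some genes of the lists are not reported here.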

Additional observations from a re-analysis of the deposited data

How the results depend on the processing

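No paired analysis was possible because the titles give no replicate numbers that pair mice across genotypes. The number of genes differing between genotypes (3) was 17 when low counts were not filtered, 16 with the title prefix as a term, 23 with DESeq2 and 5 with limma voom. It ranged from 0 to 955 when 1 mouse was left out, and the 955 came without mouse MS13-3. At an unadjusted p under 0.05, the fits with 0 genes had 451 (without MS15-2) and 568 genes (without MS13-2). The number of loop genes called between genotypes (0) ranged from 0 to 7 when 1 mouse was left out, with the 7 without MS13-3, and was 0 under each other setting tried. *Smarcc1* was -1.76 between the MS13 mice alone. It ranged from -1.59 to -1.36 when 1 mouse was left out, with adjusted p = 0.0616, 0.0533 and 0.0678 in edgeR without MS15-2, MS13-1 and MS13-2.

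The genotype differences of 6 loop genes turned sign with the prefix as a term, to 0.52 for *Arntl*, 0.88 for *Npas2*, -0.75 for *Per1*, -0.79 for *Per2*, -0.012 for *Per3* and -0.22 for *Cry2*. Between the MS13 mice alone they were 0.52, 0.79, -0.78, -0.78, -0.014 and -0.22. When 1 mouse was left out, *Per1* ranged from -0.25 to 0.84 and *Per2* from -0.012 to 1.01. *Clock*, *Cry1*, *Nr1d1* and *Nr1d2* kept their direction. With the prefix, the number of loop genes called by genotype (0, with 0.132% of all genes) was 1 without the filter (0.234%) and 1 in a robust fit (0.19%). It was 3 without MS15-2 (*Arntl*, *Per1* and *Per2*, with 0.884% of all genes). It was 2 without MS15-3 (*Per1* and *Per2*, with 0.827%) and 0 without MS14-2 (0.146%). Without MS13-1 or MS13-2 the contrast is 1 mouse against 1, and no count is given. The number called between MS15 and MS13 (8, with 7.24% of all genes) was 3 with DESeq2 (5.11% of the genes with an adjusted p). DESeq2 gave no adjusted p for *Npas2*, *Per2* and *Cry1*. The number was 6 in a robust fit (8.94%), without *Per1* and *Nr1d1*. It was 7 with at least 10 counts in every mouse (7.63%), a filter that removes *Npas2*. It was 8 in the other fits that kept both MS15 mice (5.89% to 9.75% of all genes). Without mouse MS15-2 or MS15-3 this comparison is 1 mouse against 1, and no count is given. The comparison could not be fitted without mouse MS13-3. The balance was 0.76 between the MS13 mice alone, against -0.88, and ranged from -1.53 to -0.53 when 1 mouse was left out. The spread was 0.21 in Baf155 ΔMF mice, against 0.69. The cause of the other moves was not tested. *Npas2* rests on 7 to 53 counts a mouse.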

Other observations

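Pathways that feed the muscle clock were looked at beside it, with values from the same edgeR fits. Of 15 glucocorticoid targets, 0 differed between genotypes at an adjusted p under 0.05, and 3 were lower at an unadjusted p under 0.05, as were 4.6% of all genes (3.35% were higher). *Ddit4*, an inhibitor of growth signaling, had the smallest p of the list, with a log2 fold change of -0.88 (SE 0.28, adjusted p = 0.601). By prefix 2 of the 15 were lower in MS15 (3.67% of all genes, with 3.57% higher), *Per1* itself and *Klf15* (-0.60, adjusted p = 0.0452). *Fkbp5*, a standard glucocorticoid target, had an MS15 difference of 0.08 (adjusted p = 0.843).

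Of 13 immediate early genes, 12 could be tested, and between genotypes 0 had an adjusted p under 0.05, with 1 higher and 3 lower at an unadjusted p under 0.05 (3.35% and 4.6% of all genes). *Atf3*, a stress-induced factor, was the nearest to the threshold (-0.94, SE 0.13, adjusted p = 0.0551). By prefix *Nr4a1* and *Nr4a3*, nuclear receptors that respond to contraction, were lower in MS15 (-0.57, adjusted p = 0.00664, and -1.83, adjusted p = 0.000712). The MS13 Baf155 ΔMF mice were below mouse MS13-3 as well, with log2 differences of -0.29 and -2.44. For *Nr4a3* they lay further below that mouse than the MS15 mice did. Of 10 heat shock factor targets, 0 passed an adjusted p of 0.05 between genotypes and 3 were lower at an unadjusted p under 0.05 (4.6% of all genes). *Hspa1a*, an inducible chaperone, averaged 27.1 ± 4.76 CPM in the controls and 13.6 ± 3.35 CPM in the mutants (SD, n = 3 each), with a log2 fold change of -1.01 (SE 0.18, adjusted p = 0.186). *Bag3*, a co-chaperone, was lower in MS15 (-0.48, adjusted p = 0.0185). Of 9 fasting genes, 7 could be tested, 0 passed an adjusted p of 0.05 between genotypes and 1 was higher at an unadjusted p under 0.05 (3.35% of all genes), and *Angptl4*, a lipase inhibitor, was higher in MS15 (1.45, adjusted p = 0.0154). *Fkbp5*, *Klf15*, *Nr4a1*, *Nr4a3* and *Bag3* were named after their values were seen.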
